A study of Apis mellifera with 8 samples.

Results

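Neuron projections are the axons and dendrites through which nerve cells form circuits. Their morphogenesis runs from the outgrowth of a neurite, steered by a growth cone that reads attractive and repellent guidance cues, to branching and the choice of partners. Receptors and adhesion molecules at the cell surface carry the cues, and the proteins that build actin filaments and microtubules give the projection its shape. In the honey bee, a female larva can become a queen or a worker according to their diet, and the adult brains of the castes differ.

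The genes described here are the 62 that the study placed under the gene ontology term neuron projection morphogenesis among the genes more expressed in worker heads. The study compared the heads of individual larvae of the honey bee, *Apis mellifera*, at 96 h after hatching, with 4 larvae raised as queens (96hQ) and 4 raised as workers (96hW) and no other treatment. Worker larvae were left in hive frames and marked at hatching, and queen larvae were grafted into queen cups primed with royal jelly, so that diet, cell and handling all differ between the castes. RNA was selected by poly(A) tail and sequenced as strand-specific, paired-end libraries, 1 per head, and a library held between 19139730 and 23344818 estimated counts. The head piece as the study dissected it held brain, ganglia and endocrine glands, together with some fat body, mouthparts, developing antennae, trachea and cuticle. In such bulk tissue, fewer cells of a type and less RNA per cell cannot be told apart.

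The list was built by the study from these same 8 libraries, so its members were chosen on the caste difference that is described below. The higher levels in workers are therefore a property of the selection. Thresholds that members passed, here and in fits with a library left out, are given as a description and do not test the list. Of the 62 listed genes, 60 were held by the reference table of RefSeq accessions and 46 were paired with at least 1 of the transcripts in the files, among 9161 genes so paired. The other 16 are not analysed here. The 46 paired genes held 150 transcripts, and 45 of them passed a filter of at least 5 estimated counts in at least 4 libraries. Only 3 of the 46 carry a symbol in the reference table: Abscam, the honey bee Dscam, a cell adhesion molecule through which neurites recognise each other, GluCl, a glutamate-gated chloride channel, and nanos, an RNA-binding repressor of translation. The others are given by their gene identifiers, with the further gene ontology terms under which the study placed them and no guess at their proteins.

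The listed genes took a small share of the RNA in both castes. They held between 0.335% and 0.418% of the estimated counts in queen heads and between 0.541% and 0.583% in worker heads. On the TPM scale, which corrects for transcript length and sums to a fixed total in each library, their levels added up to 1372, 1589, 1175 and 1447 in the 4 queen heads and 2399, 2325, 2457 and 2165 in the 4 worker heads. The castes did not overlap. Without LOC409643 and LOC100576326, the most abundant members, the sums were 819, 950.1, 745 and 849 in queens and 1505, 1360, 1440 and 1285 in workers, and the castes again did not overlap.

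Every one of the 45 genes had a higher mean in worker heads than in queen heads. Log2 fold changes of 96hQ over 96hW, from counts normalized by TMM, ran from -1.76 to -0.37 with a median of -0.65, and the middle of the distribution lay between -0.80 and -0.50. Over all 8156 genes tested the median was 0.00. In 43 of the 45 genes each of the 4 worker heads lay above each of the 4 queen heads, which was the case for 14.7% of all genes tested. An adjusted p under 0.01 from edgeR was reached by 36 of the 45, all higher in workers, against 3.40% of all genes tested higher in 96hW and 5.21% higher in 96hQ. By DESeq2 44 of the 45 passed the same threshold, all higher in workers, against 10.5% of all genes tested higher in 96hW. Since these libraries chose the list, nothing is read from the contrast of these shares. The number reached by edgeR depended on single libraries. When queen replicate 1, 2, 3 or 4 was left out of the fit it was 22, 20, 36 or 7. When worker replicate 1, 2, 3 or 4 was left out it was 18, 7, 3 or 5. All 45 fold changes stayed negative in each of these fits.

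**Figure D1:**
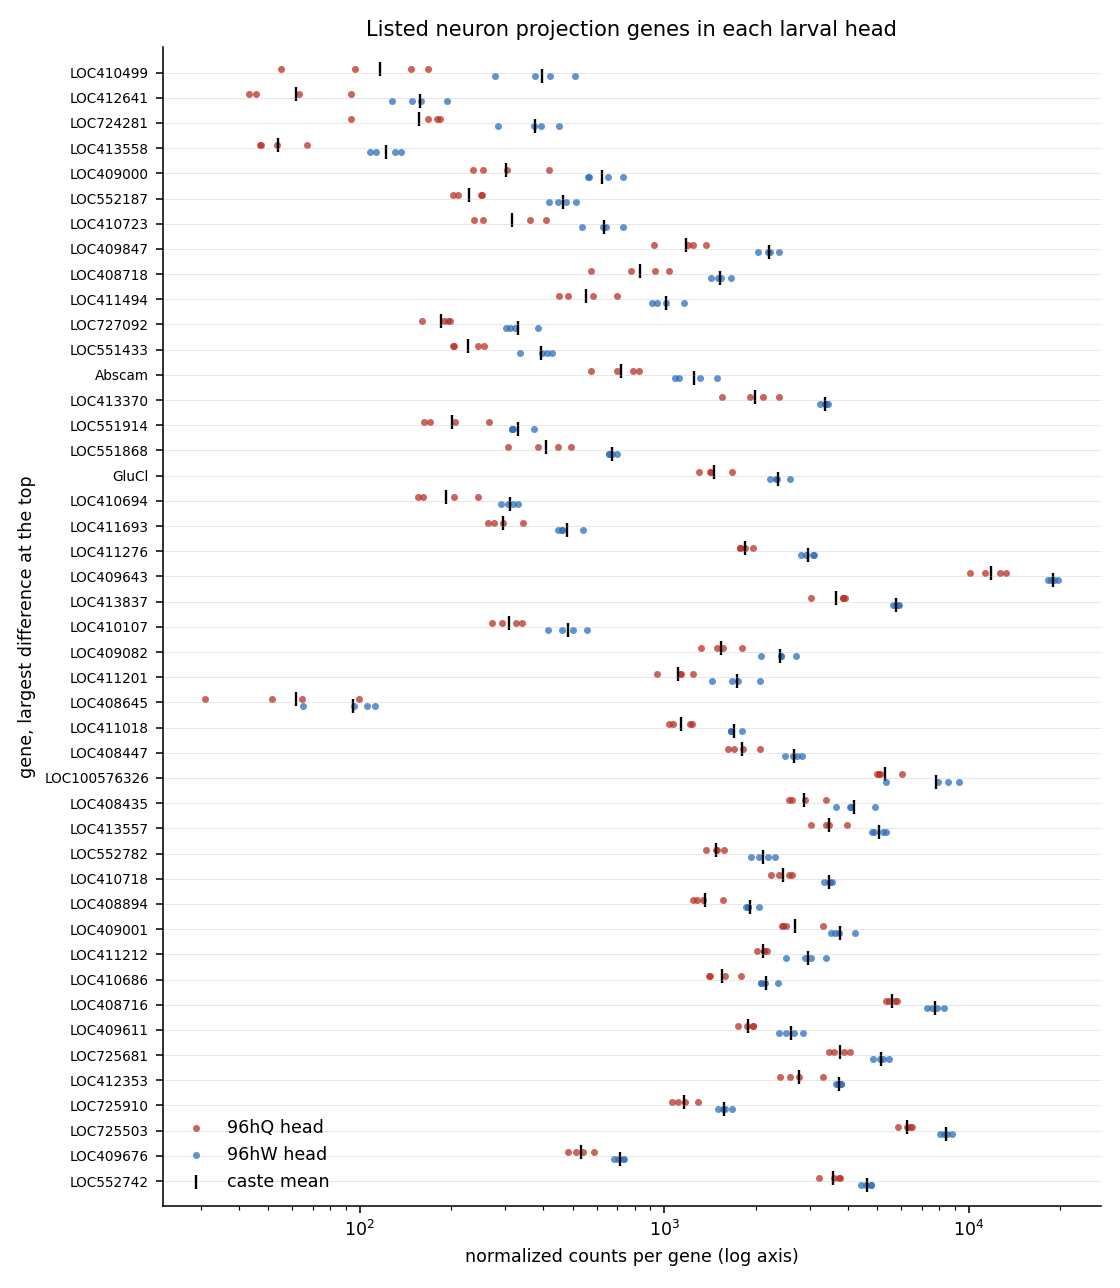
Normalized counts (log axis) of the 45 listed genes that passed the filter, one row per gene, with red points for the 4 queen heads, blue points for the 4 worker heads and a black tick at each caste mean. The castes overlap in LOC408645 and LOC100576326 and in no other row, and the rows are ordered from a log2 fold change of -1.76 at the top to -0.37 at the bottom.

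The members with the largest differences were weakly expressed. LOC410499, which the study also placed under signaling, had 168, 55.1, 96.1 and 148 normalized counts in the 4 queen heads and 508, 279, 376 and 421 in the 4 worker heads. The fitted level was 3.39-fold higher in workers (log2 fold change -1.76, SE 0.35), and its queen heads spread widely, with a coefficient of variation of 43.7% (n = 4 heads). It did not pass the threshold by edgeR in spite of this fold, but it passed by DESeq2. LOC412641 had 43.4, 45.7, 93.9 and 63.1 normalized counts in queens and 159, 194, 149 and 128 in workers. This was a 2.56-fold difference (log2 fold change -1.36, SE 0.27) that did not pass by edgeR either and passed by DESeq2. For LOC724281 the values were 179, 167, 93.9 and 184 in queens and 452, 284, 394 and 373 in workers (log2 fold change -1.27, SE 0.23). In each of these 3 genes the lowest worker head was above the highest queen head.

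LOC552187 had 203, 249.5, 252 and 209.7 normalized counts in the queen heads and 477, 449, 511 and 418 in the worker heads, so that workers held 2.03-fold more (log2 fold change -1.02, SE 0.11). Its coefficients of variation, 11.2% in queens and 8.56% in workers (n = 4 heads each), were near the medians of the list. This gene has 1 transcript in the files and reached the threshold in all 8 of the fits that left out a library. So did GluCl, with 1421, 1408, 1670 and 1303 normalized counts in queens and 2581, 2222, 2346 and 2335 in workers (log2 fold change -0.71, SE 0.09), and LOC411276, with 1845, 1777, 1767 and 1957 in queens and 2913, 2803, 3092 and 3071 in workers (log2 fold change -0.69, SE 0.06). These 3 genes were the only members to do so. In the heads of LOC411276 the coefficient of variation was 4.77% in queens and 4.62% in workers (n = 4 heads each).

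Abscam lay at a low level, with 7.64 TPM on average against 25.8 TPM for the median member. Its heads spread widely in both castes. It had 701, 787, 824 and 576 normalized counts in queen heads and 1119, 1081, 1487 and 1305 in worker heads. The means were 722 ± 110 and 1248 ± 187 (SD, n = 4 heads each), and the log2 fold change was -0.79 (SE 0.14). It reached the threshold with all libraries and in 1 of the 8 fits that left out a library. The gene nanos lay far lower still. It had at most 2.83 normalized counts in a queen head and 3.28 in a worker head, with 0 in 1 worker head, and it did not pass the filter. A caste difference of nanos was not detectable at this depth.

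A pair of genes dominated the list by level per length. LOC409643, which the study placed under none of the terms response to external stimulus, locomotion and signaling, had a mean of 286 TPM in queens and 504 TPM in workers. Its normalized counts were 12700, 13274, 10078 and 11277 in queens and 19694, 18246, 18670 and 19112 in workers (log2 fold change -0.68, SE 0.09). LOC100576326 had 268 TPM in queens and 435 TPM in workers. Its normalized counts were 4977, 5082, 5125 and 6032 in queens and 5361, 8566, 9310 and 7900 in workers (log2 fold change -0.55, SE 0.16). Worker replicate 1 lay within the range of the queens for this gene. That head also stood apart in the summed TPM of 6 fat body genes, among them the hexamerins, with 7623 against 53421 to 62769 in the other worker heads and 7778 to 19027 in the queen heads, and the part of this in the value of LOC100576326 was not tested.

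The next 6 members by level held between 46.6 and 85.3 TPM on average over the 8 heads, and 5 of them differed less than the median member. LOC412353 had 68.2 ± 11.1 TPM in queens and 103 ± 7.82 TPM in workers (SD, n = 4 heads each). Its normalized counts were 3315, 2397, 2587 and 2774 in queens and 3803, 3666, 3800 and 3709 in workers (log2 fold change -0.44, SE 0.10), so that the highest queen head came near the lowest worker head. LOC552742 had the smallest difference of the list, with 3788, 3738, 3216 and 3599 normalized counts in queens and 4409, 4757, 4602 and 4775 in workers (log2 fold change -0.37, SE 0.07). LOC725503 had means of 6254 ± 276 and 8427 ± 319 normalized counts (log2 fold change -0.43, SE 0.06), LOC413557 had -0.54 (SE 0.09) and LOC408447 had -0.57 (SE 0.09) on the same scale. The exception was LOC409847, with 922, 1367, 1241 and 1196 normalized counts in queens and 2028, 2383, 2219 and 2188 in workers (log2 fold change -0.90, SE 0.12). In all 6 the castes were apart.

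The study's other terms divide the list by the processes its genes were filed under. In the gene ontology the guidance of axons stands under both response to external stimulus and locomotion, and 34 of the 62 genes carried both terms. Of these 23 were tested, and 20 passed the threshold higher in workers by edgeR (87.0%) and 23 by DESeq2. Over the whole list 80.0% of the tested genes passed by edgeR, and over all genes 3.40% were higher in workers. As the list was chosen on this difference, nothing is read from these shares or from those of the groups below. The median log2 fold change of the 23 was -0.66. LOC413558, with 47.2, 67.2, 53.6 and 47.3 normalized counts in queens and 130.0, 108, 113 and 137 in workers, had the largest difference of this group (log2 fold change -1.18, SE 0.17). LOC409000 (-1.05, SE 0.19), LOC410723 (-1.01, SE 0.19) and LOC408718 (-0.88, SE 0.17) came next, and Abscam and GluCl belong to this group too. Toward its lower end stood LOC408716 with -0.47 (SE 0.06), LOC409611 with -0.47 (SE 0.07) and LOC409676 with -0.42 (SE 0.07).

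A further 12 genes carried only 1 of these terms, and 10 of them were tested. Of the 10, 7 passed the threshold by edgeR and 10 by DESeq2, and the median log2 fold change was -0.67. LOC410499, LOC724281, LOC411276 and LOC100576326 are in this group. LOC410694 had 155, 204, 244 and 162 normalized counts in queens and 318, 306, 332 and 289.8 in workers (log2 fold change -0.70, SE 0.16) without passing by edgeR. Signaling without either term was carried by 9 genes, and 5 of the 7 tested passed by edgeR and 6 by DESeq2, with a median of -0.50. They include LOC552187, LOC412353, LOC408894 (-0.50, SE 0.08) and LOC725681 (-0.45, SE 0.07). LOC408645, another of the 7, had 31.1, 64.5, 99.2 and 51.7 normalized counts in queens and 112, 65.0, 105 and 96.0 in workers, and its castes overlapped (log2 fold change -0.62, SE 0.35). It is named after its values were seen. The last 7 genes carried none of the 3 terms. Of the 5 tested, 5 passed by DESeq2 and 4 by edgeR, among them LOC409643, LOC409847 and LOC725910 (-0.44, SE 0.07). The medians of the 4 groups lay between -0.68 and -0.50, and the differences between groups were not tested.

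The listed genes were also described by features other than the caste difference itself. Their transcripts were long, with a median over genes of 4356 bases against 1940 bases over all genes tested, and a median gene had 2 transcripts in the files against 1. This was not particular to the list. The medians were 3568 bases and 2 transcripts for the 107 tested genes in the other terms of the study's worker list, 4356 bases and 2 transcripts for a list of 127 tested genes made from histone marks, and 5890 bases and 3 transcripts for 29 tested genes of a list made from histone marks and RNA, both described further on. They were not strongly expressed, since the median gene had 25.8 TPM on average over the 8 heads, against 27.2 TPM over all genes tested. Within a caste they varied about as much as other genes. The median coefficient of variation between heads was 11.9% in queens and 7.94% in workers for the listed genes, and 12.8% and 9.14% over all genes tested. Level and spread between heads enter a test of the caste difference, so neither is independent of the choice of the list. Along the chromosomes of the reference assembly, protein-coding genes of the list stood next to each other in 2 pairs, LOC411212 with LOC411201, and LOC408688 with LOC551914, and both genes were measured only in the first pair. LOC411212 (log2 fold change -0.49, SE 0.09) and LOC411201 (-0.64, SE 0.12) were named for this position. In both genes worker replicate 3 was the highest of its caste, at 3408 and 2066 normalized counts, and worker replicate 2 the lowest, at 2513 and 1433.

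Transcript length went with the caste difference across all genes. The Spearman correlation between mean transcript length and the log2 fold change was -0.24 over the 8156 genes, which share the libraries and are not independent replicates, so that genes with long transcripts tended to be higher in workers. After a loess trend on length, fitted to the genes outside the lists described here, was taken away, the median log2 fold change of the 45 listed genes was -0.55 in place of -0.65. On the TPM scale, log2(TPM + 1), the listed genes had a median of -0.75, but the median of all genes tested moved as well, to -0.14.

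**Figure D2:**
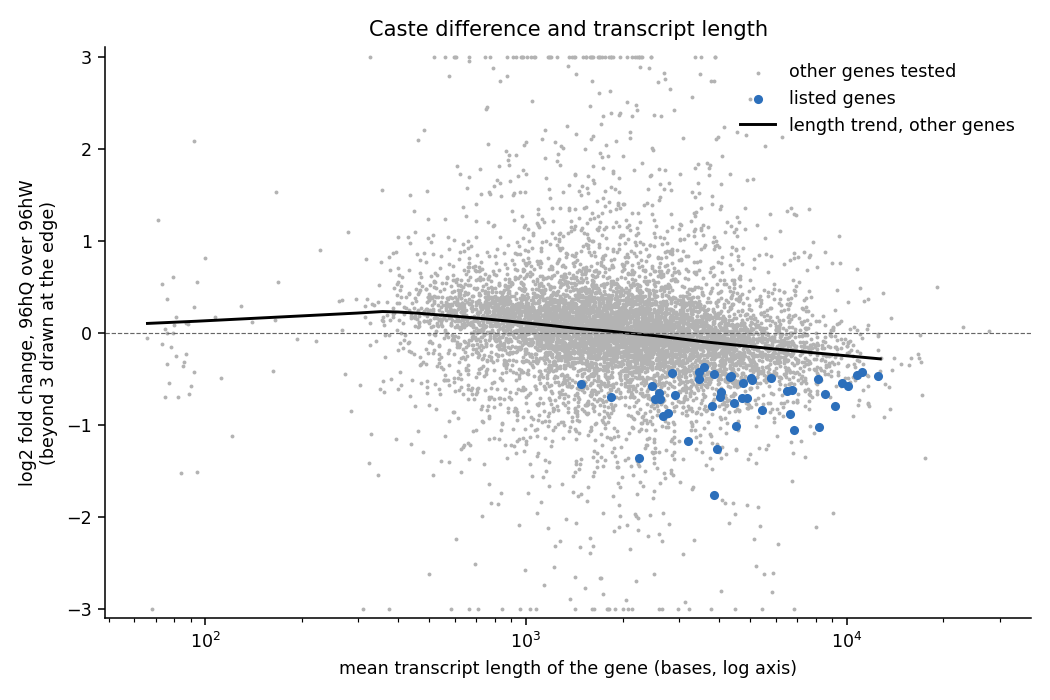
Log2 fold change of 96hQ over 96hW (vertical) against mean transcript length in bases (log axis) for the 8156 genes tested, with the 45 listed genes in blue, the other genes in grey and the trend on length as a black line. The listed genes lie at a median length of 4356 bases and all fall below 0, between -1.76 and -0.37.

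The heads of a caste were alike over the list as a whole. The geometric mean of the 45 genes was 836, 909, 933 and 848 normalized counts in queen replicates 1 to 4 and 1467, 1385, 1508 and 1439 in worker replicates 1 to 4. Queen replicate 1 was the lowest of its caste in 20 of the 45 genes, and queen replicate 3 the highest in 19. Among workers, replicate 2 was the lowest in 19 genes and replicate 3 the highest in 21, while replicate 3 was the lowest in only 1. Replicate 3 of the queens was thus highest by normalized counts and lowest by summed TPM, and that head had the smallest TMM factor, 0.872, and the largest summed TPM of 21 cuticle protein and apidermin genes, 118258. These genes summed to 64274 to 82135 TPM in the other queen heads and to 20791 to 35711 TPM in the worker heads.

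Markers of some cell types in the head also differed between castes, and not all in the direction of the list. Of 40 symbols of neuronal genes, 23 were paired, and besides Abscam and GluCl these left 21, mainly receptors for acetylcholine and amines together with neurexin and synaptotagmin. Their summed level was 111, 169.9, 155 and 153 TPM in the queen heads and 289, 260.0, 267 and 228 TPM in the worker heads, without overlap. Of the 21, 18 had a negative log2 fold change, the median was -0.70, and 2 passed the edgeR threshold, both higher in workers, against 3.40% of all genes tested. By DESeq2 9 were higher in workers, against 10.5% of all genes. An unadjusted p under 0.05 from edgeR was reached by 14 of the 21, and by 3342 of all 8156 genes (41.0%) in either direction. 3 of them, 5-HT2beta, 5-ht7 and Dop3, had under 1 TPM on average. Eaat-2, a glutamate transporter and the only glial marker paired, had 13.9 to 32.0 TPM in queens and 34.8 to 40.5 TPM in workers (log2 fold change -0.43). It passed neither by edgeR nor by DESeq2, and its unadjusted p from edgeR was not under 0.05. Each of the 6 fat body genes had a higher fitted level in workers (median log2 fold change -2.45). Of the 6, 2 passed by edgeR and 4 by DESeq2, each higher in workers, against 3.40% and 10.5% of all genes tested. The sums of the 6 genes overlapped between castes through worker replicate 1 alone. Of 7 troponin genes of muscle, 0 passed in either direction by edgeR or by DESeq2. Over all genes 3.40% were higher in 96hW and 5.21% in 96hQ by edgeR, and 10.5% and 12.7% by DESeq2. Of the 7 troponin genes 1 had an unadjusted p under 0.05 from edgeR. Their sums of 2864 to 6394 TPM in queens and 4005 to 7458 TPM in workers overlapped. The cuticle protein and apidermin genes went the other way. Of 19 tested, 5 were higher in queens by edgeR and 8 by DESeq2, against 5.21% and 12.7% of all genes. The median log2 fold change of the 19 was 1.24, with 4 of them negative. The 4 silk fibroin genes summed to under 10 TPM in every head. The part of the make-up of the heads in the levels of the listed genes was not tested.

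The question whether the list's neighbours in function differed between castes was put to lists chosen wholly or in part in other ways. The study also listed 164 genes under a related term, cell morphogenesis involved in differentiation, by caste differences in histone marks and not by RNA. Of these, 127 were tested, 10 were higher in workers (7.87%) and 1 was higher in queens (0.787%) at an adjusted p under 0.01 from edgeR, against 3.40% and 5.21% of all genes tested, and the median log2 fold change was -0.16. The list shares 14 genes with the 62, and 9 of the 10 genes higher in workers were among the 10 shared genes that were tested. Of the 117 genes outside the 62, 1 was higher in workers and 1 in queens, or 0.855% each against the same 3.40% and 5.21%, with a median of -0.13. Taking the shared genes away removes genes that were chosen for being higher in workers, so the share among the 117 is lowered by that choice. By DESeq2, 28 of the 127 were higher in workers and 5 in queens, against 10.5% of all genes tested higher in 96hW and 12.7% higher in 96hQ. Of the 117, 18 were higher in workers and 5 in queens by DESeq2. An unadjusted p under 0.05 from edgeR was reached by 51 of the 127, against 41.0% of all genes, in either direction. The trend on length brought the median of the 127 genes to -0.04.

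The genes of the 117 that passed are named because they were the only ones. LOC410632 had 283, 294, 288 and 314 normalized counts in queens and 426, 424, 397 and 427 in workers (log2 fold change -0.51, SE 0.07, adjusted p = 0.00313 from edgeR), and it stands in other terms of the study's list of RNA differences. LOC411890 had 5866, 6424, 6997 and 6472 in queens and 5064, 4962, 5111 and 5296 in workers (log2 fold change 0.33, SE 0.06, adjusted p = 0.00964 from edgeR). The castes did not overlap in either gene. The first passed in 5 of the 8 fits that left out a library and the second in 1.

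The number of genes of this list that passed in either direction, 11 with all libraries, fell to 9, 8 and 3 when queen replicate 1, 2 or 4 was left out and became 13 when queen replicate 3 was. Leaving out worker replicate 1, 2, 3 or 4 gave 6, 3, 2 or 2.

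The same term, neuron projection morphogenesis, has a further list made from histone marks and RNA combined, which was thus also chosen in part on these libraries. This list of 37 genes shares 10 with the 62, of which 7 were measured. These were LOC552187, LOC410723, LOC411276, LOC409643, LOC552782, LOC409001 and LOC409611, and their log2 fold changes ran from -1.02 to -0.47. LOC552782 had 1476, 1567, 1495 and 1370 normalized counts in queens and 2192, 1919, 2302 and 2042 in workers (log2 fold change -0.52, SE 0.07). LOC409001 had 2461, 2430, 3316 and 2514 in queens and 4219, 3626, 3751 and 3520 in workers (log2 fold change -0.50, SE 0.11). It was the only one of the 7 that did not pass by edgeR, while all 7 passed by DESeq2. Of the 27 genes of that list outside the 62, 22 were tested, and by edgeR 1 passed higher in workers (4.55%, against 3.40% of all genes tested) and 0 in queens. By DESeq2 13 of the 22 were higher in workers, against 10.5% of all genes, and 18 had an unadjusted p under 0.05 from edgeR, against 3342 of all 8156. The median log2 fold change of the 22 was -0.33, and 21 of them were negative. Since the choice drew in part on these libraries, nothing is read from these shares.

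**Figure D3:**
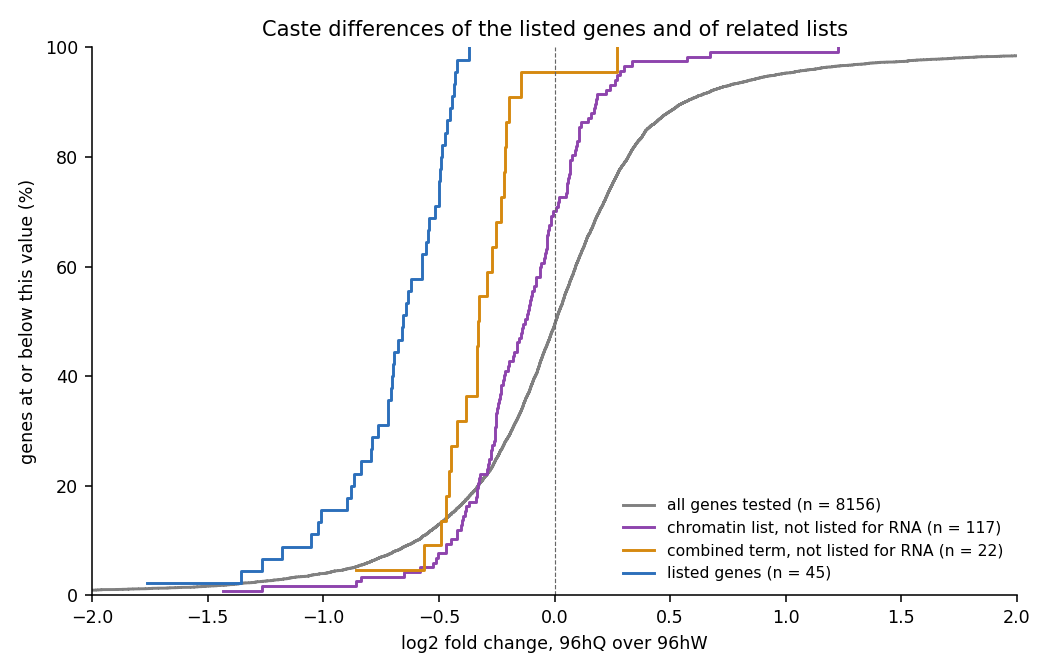
Cumulative share of genes (vertical, percent) by log2 fold change of 96hQ over 96hW (horizontal, shown from -2 to 2) for all 8156 genes tested, the 117 genes of the chromatin list and the 22 of the combined list that are outside the RNA list, and the 45 listed genes. The curve of the 45 reaches 100% at -0.37, where the medians of the other lists lie at -0.33 for the 22, -0.13 for the 117 and 0.00 for all genes.

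At the level of transcripts the list was less even than at the level of genes. Of its 150 transcripts, 125 passed the filter, 109 of them with a negative log2 fold change and 16 with a positive one. In 55 of the 150, among them 54 of the 125, every worker head was above every queen head, and in 0 the reverse. Of all transcripts tested, 8.78% had every worker head above every queen head. An adjusted p under 0.01 from edgeR was reached by 5, all higher in workers, against 0.316% of the 20863 transcripts tested. By DESeq2 44 of the 125 passed the same threshold, all higher in workers, against 4.55% of all transcripts tested. Nothing is read from these shares, since the transcripts belong to genes chosen on the caste difference. Without 96hQ replicate 3 the number was 2, and without any other single library it was 0 by edgeR, where 58 to 63 had an unadjusted p under 0.05. The 5 belong to LOC411276, LOC413837, LOC552187, LOC552742 and LOC410718, the last named for this. Of the 46 paired genes 14 had 1 transcript and 32 had several, up to the 14 of LOC413837. In 19 of the 32 the leading transcript held over 50% of the gene's counts in every head. The share over all genes is not given here, so nothing about the list is read from this.

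In several genes the castes were apart in some transcripts and overlapped in another. The rule for naming genes looked for transcripts with opposite signs, and differences between the transcripts of a gene were not tested. LOC411276 has 3 transcripts. XM_016913723, the leading one, had 1179, 1008, 1124 and 1295 normalized counts in queens and 1890, 1874, 1810 and 1959 in workers (log2 fold change -0.71, SE 0.08), and XM_016913725 had 271, 304, 361 and 216 in queens and 684, 582, 748 and 567 in workers (-1.17, SE 0.17). In both the castes were apart. XM_016913724 had 417, 508, 281 and 485 in queens and 272, 311, 496 and 511 in workers (0.09, SE 0.27), and its castes overlapped over nearly their whole range. Its share of the counts of the gene was 22.6 ± 5.04% in queens and 13.5 ± 3.63% in workers (SD, n = 4 heads each). These shares overlapped, with 15.9% to 27.9% in queens and 9.54% to 16.8% in workers.

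LOC552742, the member with the smallest difference, showed the same arrangement. Its leading transcript XM_016915611 had 1932, 1819, 1970 and 1900 normalized counts in queens and 2575, 3048, 2799 and 2720 in workers (log2 fold change -0.55, SE 0.07). XM_006565265 had 1040, 1292, 722 and 1139 in queens and 843, 1150, 938 and 933 in workers (0.12, SE 0.18). The leading transcript was thus clear of overlap and XM_006565265 was not. The gene has 4 transcripts. XM_625117 had 94.0, 413, 524 and 629 in queens and 822, 499, 699 and 901 in workers (-0.82, SE 0.50), with overlap. The sum over the gene differed less than the leading transcript alone, and the part of each other transcript in this was not tested. A further transcript, XM_016915610, had 765 and 304 normalized counts in queen replicates 1 and 2 and at most 2.62 in the other queen heads. In the worker heads it had 66.2, 0.120, 109 and 166 (1.65, SE 1.80).

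The transcripts of LOC408894 differed unequally. Its leading transcript XM_392425 had 636, 647, 624 and 566 normalized counts in queens and 694, 618, 650.1 and 859 in workers (log2 fold change -0.19, SE 0.11), with overlap. The second by level, XM_016912629, had 418, 315, 324 and 379 in queens and 581, 715, 658 and 304 in workers (-0.65, SE 0.25), and worker replicate 4 lay below every queen head. XM_006564128 had 29.5, 80.5, 37.7 and 44.4 in queens and 308, 241, 159.5 and 205 in workers, a 4.74-fold difference (log2 fold change -2.25, SE 0.37) that did not pass the threshold over all transcripts. Its share of the gene's counts was 1.87% to 6.31% in queens and 8.55% to 15.5% in workers, so the shares did not overlap either. That was the case for 5 of the 108 transcripts with at least 20 normalized counts on average in the genes with several, and for 8.36% of the 9201 such transcripts over all paired genes, so that shares apart between castes were not particular to the list.

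**Figure D4:**
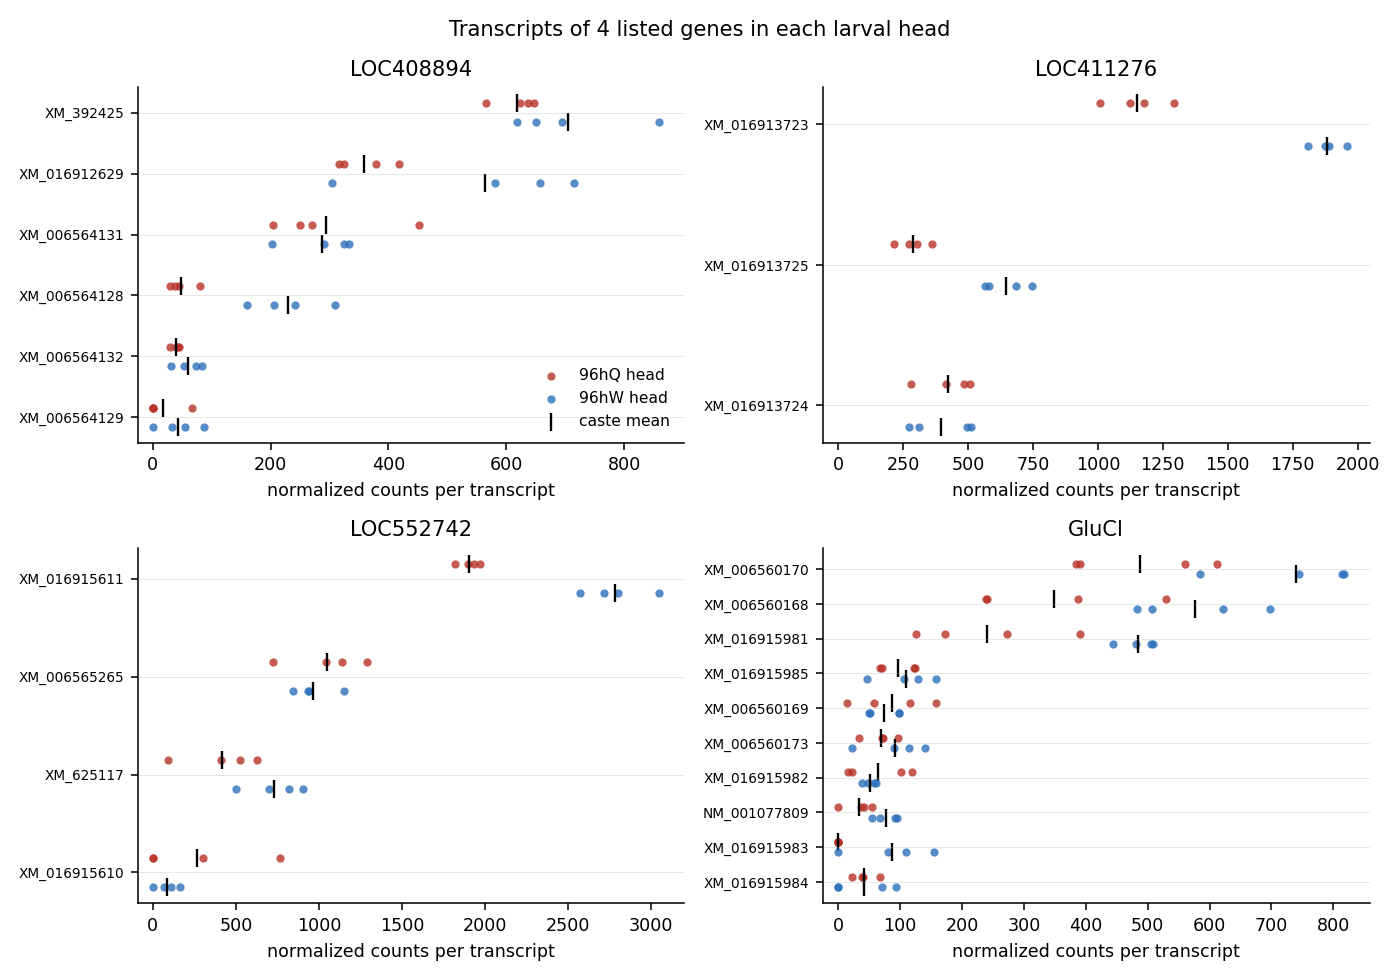
Normalized counts of each transcript with a mean of at least 20 in 4 listed genes (LOC408894, LOC411276, LOC552742 and GluCl), with red points for the 4 queen heads, blue points for the 4 worker heads and a black tick at each caste mean. XM_006564128 of LOC408894, XM_016913725 of LOC411276 and XM_016915611 of LOC552742 are apart between castes, while XM_016913724 and XM_006565265 overlap.

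The other transcripts whose share did not overlap belong to LOC409000, LOC411201 and LOC725503. LOC409000 has 2 transcripts. XM_392530 held the whole of the gene's counts in the queen heads. XM_006561865 had 0 estimated counts in each of the 4 queen heads and 55.9, 4.14, 34.1 and 16.3 normalized counts in the worker heads. By the sampling of reads alone a 0 allows up to 3 counts per head. The error of dividing reads between the 2 transcripts comes on top and was not measured. XM_006561865 held between 0.75% and 7.83% of the gene in workers. In LOC411201, XM_006568366 had below 0.01, 31.3, 71.4 and 0 normalized counts in queens and 208, 93.4, 168 and 144 in workers. In LOC725503, XM_016916618 had 372, 105, 346 and 400.2 in queens and 577, 629, 696 and 658 in workers (log2 fold change -1.07, SE 0.37), while the leading XM_016916620 had 2199, 2595, 2518 and 2711 in queens and 2522, 3165, 3217 and 2845 in workers (-0.23, SE 0.10).

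GluCl and Abscam each have 10 transcripts in the files. The 3 most abundant of GluCl, XM_006560170, XM_006560168 and XM_016915981, had log2 fold changes of -0.60 (SE 0.19), -0.72 (SE 0.28) and -1.01 (SE 0.32). Of these XM_016915981, with 392, 173, 126 and 273 normalized counts in queens and 508, 482, 505 and 444 in workers, kept the castes apart. XM_016915983 had less than 0.01 normalized counts in each queen head and 109, 0, 80.4 and 155 in workers. In Abscam, 4 of the 10 transcripts were at 0 in every head. The leading XM_016912485 had 343, 246, 439.8 and 289 in queens and 595, 559.6, 389 and 667 in workers (-0.75, SE 0.22). The castes overlapped in each of the 5 Abscam transcripts with at least 20 normalized counts on average, although they were apart in the sum over the gene.

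Some transcripts were present in 1 head of a caste and nearly absent from the next. XM_006558108 of Abscam had 0.0223, 261, 98.6 and 0.0975 normalized counts in the queen heads and 111, 0.0243, 429 and 0.202 in the worker heads. XM_006566270 of LOC413837 had 188, 0.00827, 15.1 and 306 in queens and 0.00269, 1.51, 217 and 193 in workers. Such swings, from under 1 in a head to at least 50 in another, were found in 26 of the 150 transcripts, from 16 genes. The share over all transcripts is not given here, so this number is not read as a trait of the list. The sum over LOC413837 was steady by contrast, with 3024, 3850, 3850 and 3927 normalized counts in queens and 5631, 5767, 5895 and 5840 in workers (log2 fold change -0.66, SE 0.09). Reads that fit several transcripts of a gene were divided among them by the mapping tool, and the error of that division was not measured.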

How the data were processed

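Each of the 8 libraries was the head of 1 larva. Strand-specific reads were mapped with kallisto (version not given in the sources used here). The estimated counts per RefSeq transcript, which are expected counts from dividing reads among transcripts, were made by the authors and deposited without normalization between libraries. The TPM are also as deposited, length-corrected by the authors' tool to one total per library. Deposited transcript lengths were used as given. The paper's index was an Ensembl Metazoa set, but the identifiers in the files are RefSeq accessions. Histone mark data were not used here.

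Transcripts were assigned to genes by accession root through a RefSeq table of the assembly Amel_HAv3.1, which is later than the files. It thus set which transcripts were summed into each gene, besides names and gene order. Only 1449 transcripts were matched at the same version. Of 28739 transcripts, 17723 were assigned, to 9161 genes, and these took 78.09% to 81.03% of the counts. Both measures were summed per gene.

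Rounded counts were fitted over all genes, and over all transcripts, in edgeR 4.0.16 under R 4.3.3. Features needed at least 5 counts in at least 4 of 8 libraries. TMM factors, a quasi-likelihood F test with caste alone, and Benjamini-Hochberg adjustment over all features were used, at a threshold of 0.01. Normalized counts were brought to the mean library total after TMM. Each SE is the fold change over the root of F. The trend on length used statsmodels 0.14.6 in Python 3.11.15 with a span of 0.5. The fit was tested on simulated data. P-values measure the spread between heads, animals and preparation together.

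The members and lists were chosen with earlier results of these data known. A rule set the genes to name: the 8 highest by TPM, the 8 largest differences with castes apart and 10 normalized counts or more in every head, the 8 smallest differences, genes with a symbol, genes having transcripts of 20 or more normalized counts that differ in opposite directions by over 0.5, and genes shared with the combined list, 30 in all. Its part on protein motifs could not be applied.

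Alternatives were RLE and upper-quartile factors, library totals, DESeq2 1.42.0, limma 3.58.1 (voom, log2(TPM + 1) and log2(TPM + 0.1)), no filter, at least 10 counts in all 8 libraries, a threshold of 0.05, a replicate block, and each library left out. Leaving out 96hQ replicate 3 together with 96hW replicate 1 was added after seeing the data.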

Additional observations from a re-analysis of the deposited data

Results flagged for a closer look

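In 90 sets of 4 heads, the 45 listed genes in each caste, 7 had a head that stood far from the other 3 by Dixon's criterion, where chance flags about 1 set in 20.

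In queens, LOC413837 had 3024 normalized counts in replicate 1 against 3850 to 3927 in the others, LOC100576326 had 6032 in replicate 4 against 4977 to 5125, and LOC409001 had 3316 in replicate 3 against 2430 to 2514. In workers, replicate 1 was high for LOC408894 with 2039 against 1861 to 1888, for LOC411693 with 539 against 447 to 463 and for LOC551914 with 373 against 316 to 319. Worker replicate 3 was high for LOC411018 with 1806 against 1651 to 1658. The last 3 genes are named for this. The castes did not overlap in 6 of these 7 genes, LOC100576326 being the exception.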

How the results depend on the processing

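The fold changes of all 45 listed genes kept their sign under every alternative run, but the number past the threshold did not hold. It was 36 and became 13 with library totals only, 19 on log2(TPM + 1), 12 on log2(TPM + 0.1) and 3 to 36 with 1 library left out. For all genes the corresponding numbers were 702, 269, 239, 146 and 142 to 774, for transcripts 250, 68, 78, 53 and 2 to 152, and for the chromatin list 11, 2, 4, 3 and 2 to 13. DESeq2 gave 1893 genes, 2295 transcripts and 33 of the chromatin list, and a threshold of 0.05 gave 2189, 1550 and 35. Of the listed genes 44 passed by DESeq2, 38 by limma-voom, 38 with at least 10 counts in all 8 libraries and 36 with RLE factors. The number was 32 with upper-quartile factors and 35 without a filter. Without a filter 159 transcripts passed. Without 96hQ replicate 3 and 96hW replicate 1, left out together after seeing the data, 10 transcripts passed.

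With the replicate number as a block, 10 genes, 1 transcript, 0 of the chromatin list and 0 of the listed genes passed by edgeR, with 51 and 44 at an unadjusted p under 0.05. Heads with the same number did not deviate together (correlations of -0.065 to 0.075), against -0.075 to 0.099 for heads with different numbers. The numbers thus gave no sign of pairing, although a small shared effect could be missed.

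The median log2 fold change of the listed genes was -0.65, and -0.75 on log2(TPM + 1), -0.80 on log2(TPM + 0.1) and -0.55 without the trend on length. That of the chromatin list was -0.16, and -0.30, -0.31 and -0.04 in these. Of 551 fold changes of named genes under alternatives, 34 moved by at least 1 SD between heads, all on TPM scales, and 0 changed sign. The 198 shares of leading transcripts moved by less. The cause of these shifts was not tested. Among the listed genes, nanos, with at most 3.28 normalized counts in a head, was too shallow to be tested.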
